A study of Mus musculus with 31 samples.

Results

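*Maob*, *Dpyd*, *Sil1*, *Plcb1* and *Ppm1l* are 5 of the 31172 gene symbols measured in the liver of *hFIX-R29X* mice. They were chosen because their RNA fell with an antisense oligonucleotide (ASO) against *Upf3b* and because each is spread over a long stretch of genome. The fall with *Upf3b*-GalNAc-ASO was therefore what selected them, and it is given here as a description without a test. The selection had no stated threshold, so no genes just inside or outside it can be named. *hFIX-R29X* mice lack mouse factor IX and carry a human factor IX minigene with a premature stop codon, driven in hepatocytes by the human transthyretin promoter, as a model of hemophilia B. All 31 mice were adults of 8 to 14 weeks, and RNA came from whole liver 48 h after the last of 6 subcutaneous doses given 5 days apart. In 11 mice (6 female, 5 male) the injections were of buffer (DPBS). Control-GalNAc-ASO was given to 4 mice (2 female, 2 male) at 15 mg/kg and to 6 mice (3 female, 3 male) at 20 mg/kg. *Upf3b*-GalNAc-ASO was given to 5 mice (2 female, 3 male) at 10 mg/kg and to another 5 (2 female, 3 male) at 20 mg/kg. GalNAc is a sugar tag that hepatocytes take up, and the lower dose of *Upf3b*-GalNAc-ASO has no control ASO group at the same dose.

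UPF3B belongs to the nonsense-mediated mRNA decay (NMD) pathway, which degrades mRNAs such as those with a premature stop codon, and UPF3A is its paralog. In some cases an exon junction complex downstream of the stop codon promotes this decay. A gapmer ASO pairs with RNA and directs RNase H to cleave it, in the nucleus as well as the cytoplasm, so that introns can be cleaved as well as exons. The 5 genes do unrelated work in the cell. *Maob* encodes monoamine oxidase B of the outer mitochondrial membrane, which oxidises amines such as phenylethylamine. *Dpyd* encodes dihydropyrimidine dehydrogenase, the rate-limiting enzyme in the breakdown of uracil and thymine. *Sil1* encodes a nucleotide exchange factor that lets the endoplasmic reticulum chaperone BiP release ADP. *Plcb1* encodes a phospholipase C that Gq-coupled receptors activate, and *Ppm1l* encodes a membrane-bound protein phosphatase of the PP2C family.

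The genes differ in their exon structure. On GRCm38, *Maob* spans 108 kb of the X chromosome (16709282 to 16817366, minus strand) with 15 exons. *Dpyd* covers 871 kb of chromosome 3 (118562129 to 119432924, plus strand) with 23 exons, and *Ppm1l* covers 244 kb of the same chromosome (69316861 to 69560802, plus strand) with 4 exons. *Sil1* covers 233 kb with 10 exons, and *Plcb1* covers 689 kb of chromosome 2 (134786067 to 135475258, plus strand) with 33 exons. Of the 8564 genes tested at both doses that had an annotated span, 89.5% were shorter than *Maob*, and between 97.1% and 99.8% were shorter than each of the other 4. *Maob* is thus the shortest by a wide margin. Exons of any annotated transcript cover between 1.02% (*Dpyd*) and 4.30% (*Ppm1l*) of these spans, against 21.4% of the 18.6 kb of *Upf3b*.

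The ASO and its best matches are shown because a fall of RNA can follow from pairing with the ASO. *Upf3b*-GalNAc-ASO has 16 bases. The exact complement was found in 1 of 141767 annotated transcripts, that of *Upf3b*, in the 3′ UTR in exon 10 of 10 (chrX:37091973-37091988, minus strand). For *Maob*, *Dpyd*, *Plcb1* and *Ppm1l* the transcript site with the fewest mismatches to that complement follows, with the longest unbroken stretch that pairs with the ASO in capitals.
Upf3b-GalNAc-ASO: ggatatagatgtaacg
Control-GalNAc-ASO: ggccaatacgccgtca
Upf3b site: CGTTACATCTATATCC
Maob site: ctttagagccacATCC
Dpyd site: tgctaaATCTATAacc
Plcb1 site: cacTACATCTgcctgc
Ppm1l site: gGTTACATCattctca

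The *Maob* site had 5 mismatches and lies in the 3′ UTR (chrX:16710016-16710031, exon 15 of 15). The *Ppm1l* site also had 5 and lies in the 3′ UTR (chr3:69556587-69556602, exon 4 of 4). That of *Dpyd* had 4 mismatches and lies in the last exon of a 3-exon transcript with no annotated coding sequence (chr3:118899633-118899648). The best sites of *Plcb1* (chr2:135346302-135346317, exon 22 of 32 of that transcript) and of *Sil1* had 6 mismatches each and lie in coding sequence. Matches of this kind were common. Of 9615 tested genes other than the one compared, 55.4% had a site with at most 5 mismatches, 93.7% one with at most 6 and 10.4% one with at most 4. The longest unbroken match anywhere in the transcripts was 8 bases for every gene of the set but *Sil1*, which had 6, and 31.5% of tested genes had a match of 8 or more. Introns, which make up most of each span, were not searched, so pairing of the ASO with the unspliced RNAs was not tested.

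Sequencing depth was between 1020676 and 7391615 reads per mouse, as recovered from the step between low values, which is below the depth that the study's methods state. The difference was not resolved, and all read counts here are of this recovered kind. In them, 3 reads, the limit that a count of 0 allows, corresponded to between 0.406 and 2.94 TPM. Intervals and limits of this kind cover counting error only. Replicate 3 at 10 mg/kg of *Upf3b*-GalNAc-ASO was the shallowest, and its median correlation with the other mice of its group was 0.672. DPBS replicate 6 stood apart in the same way (0.724), with 1195891 reads, and *Sil1* and *Plcb1* are listed at 0 there, where 3 reads would be 2.51 TPM. Levels are in TPM that were not divided by transcript length, so they compare mice but not genes. Summed over 6 hepatocyte markers, the level was 13938 to 28842 TPM at 10 mg/kg of *Upf3b*-GalNAc-ASO against 21586 to 30349 TPM in its control group, and 16922 to 28349 TPM against 13901 to 26753 TPM at 20 mg/kg. All 6 were above 0 in every mouse. In whole liver, fewer cells of a type and less RNA per cell cannot be told apart.

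*Maob* was lower in all 10 *Upf3b*-GalNAc-ASO treated mice than in all 21 other mice. The genes were chosen for their fall, and here and below the share of all genes that separate in this way was not counted. Replicates 1 to 4 of Control-GalNAc-ASO at 15 mg/kg had 121.1, 100.1, 106.4 and 73.7 TPM. The 5 mice on *Upf3b*-GalNAc-ASO at 10 mg/kg had 8.44, 7.96, 14.7, 20.2 and 15.98 TPM of *Maob*, resting on 15 to 93 reads. At 20 mg/kg they had 17.5, 0.768, 11.5, 1.95 and 14.0 TPM, and the control mice at that dose ran from 56.0 to 151.1 TPM with a median of 96.9 TPM. The highest treated mouse, at 20.2 TPM, thus stayed below the lowest of the others, a DPBS mouse at 39.2 TPM. The mean left was 13.4% of control at 10 mg/kg and 9.14% at 20 mg/kg.

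*Dpyd* was separated from all other mice in the same way. The controls at 15 mg/kg had 108.1, 58.9, 75.2 and 47.6 TPM, and those at 20 mg/kg ran from 47.8 to 94.9 TPM with a median of 66.2 TPM. In replicate order, *Dpyd* was 7.14, 13.4, 10.8, 6.51 and 18.6 TPM at 10 mg/kg of *Upf3b*-GalNAc-ASO and 4.90, 11.1, 7.83, 18.1 and 2.46 TPM at 20 mg/kg. No treated mouse reached 37.1 TPM, the lowest value in the other 21 mice. Of the control mean, 15.6% was left at 10 mg/kg and 12.8% at 20 mg/kg.

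*Sil1* fell to a few reads. It was 33.8, 28.6, 35.3 and 30.3 TPM in the 4 controls at 15 mg/kg and between 20.3 and 48.7 TPM (median 34.98 TPM) in the 6 controls at 20 mg/kg. The treated mice had 1.30, 4.98, 0, 5.21 and 0 TPM at 10 mg/kg and 5.11, 0.384, 1.38, 0.977 and 0 TPM at 20 mg/kg, where 0 to 24 reads were counted per mouse. All 10 were below every ASO control and below every DPBS mouse other than replicate 6, of which the next lowest had 14.7 TPM. At these counts the level that remained could not be resolved in the mice listed at 0. The group means were 7.18% and 4.51% of control at 10 and 20 mg/kg.

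*Plcb1* did not separate from its controls at 10 mg/kg, which departs from the description of all 5 genes as strongly lowered. The controls at 15 mg/kg had 24.7, 2.15, 13.5 and 14.3 TPM, and the treated mice had 11.4, 1.74, 14.8, 0 and 0 TPM. Both females of the treated group, at 11.4 and 14.8 TPM, were within the range of the controls, and the 3 males were below it. Mice on 20 mg/kg had 0.784, 0, 0.461, 0.977 and 0.821 TPM of *Plcb1*, on 0 to 4 reads each, all below 13.2 to 30.96 TPM (median 19.3 TPM) in the controls. The mean left was 40.8% of control at 10 mg/kg and 2.99% at 20 mg/kg.

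*Ppm1l* was the least lowered at 20 mg/kg. Its values were 60.5, 72.2, 72.2 and 48.6 TPM in the controls at 15 mg/kg and 12.99, 23.4, 4.90, 39.7 and 19.3 TPM with *Upf3b*-GalNAc-ASO at 10 mg/kg. With 20 mg/kg they were 11.1, 5.18, 6.45, 5.86 and 25.0 TPM, against 33.4 to 98.3 TPM (median 70.6 TPM) in the controls. Each treated group lay wholly below its control group, but replicate 4 at 10 mg/kg, at 39.7 TPM, was above the lowest DPBS mouse, at 31.2 TPM. The mean was 31.7% of control at 10 mg/kg and 15.9% at 20 mg/kg.

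**Figure D1:**
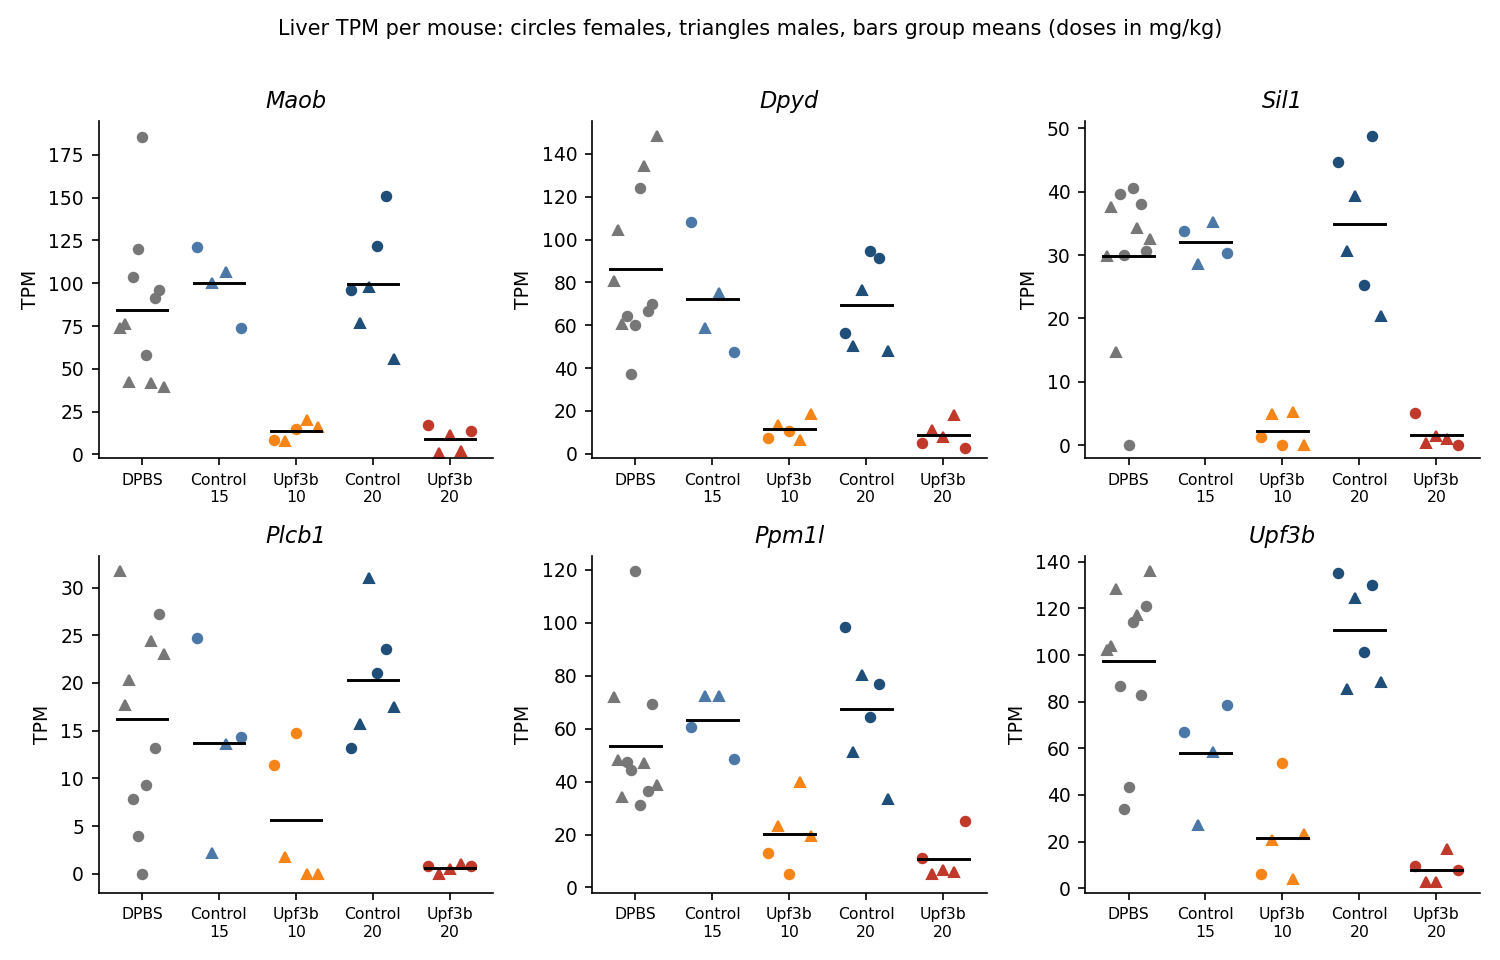
Liver TPM (linear vertical axes) of each gene and of Upf3b in every mouse by group, with circles for females, triangles for males and bars for group means. The 10 Upf3b-GalNAc-ASO treated mice lie below all 21 others for Maob and Dpyd, while Plcb1 at 10 mg/kg reaches 14.8 TPM, within the range of its controls.

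Fitted across all genes with sex as a covariate, the log2 changes of log2(TPM + 1) at 10 mg/kg were -2.89 (SE 0.38) for *Maob*, -2.62 (SE 0.42) for *Dpyd*, -3.82 (SE 0.65) for *Sil1*, -1.47 (SE 0.67) for *Plcb1* and -1.96 (SE 0.42) for *Ppm1l*. Without replicate 3 of the controls, which had 13.5 TPM, the change of *Plcb1* was -0.79. The changes at 20 mg/kg were -3.63 (SE 0.45), -3.06 (SE 0.41), -3.998 (SE 0.52), -3.71 (SE 0.53) and -2.60 (SE 0.36) in the same order. The median change over all genes tested was -0.03 at 10 mg/kg and -0.12 at 20 mg/kg. Counted by an adjusted p under 0.05 in limma, 3 of the 5 were lower at 10 mg/kg, where 0.175% of 9166 genes tested were, and 5 of 5 at 20 mg/kg, where 1.59% of 9376 were. By the study's own thresholds (at least 2-fold, unadjusted p up to 0.01), the counts were 4 of 5 (background 2.25%) and 5 of 5 (background 3.87%). Here and below these thresholds were applied to the limma p, while the study used the median of a p computed for each replicate, so its counts are not matched. Leaving out 1 control mouse at 15 mg/kg took the first count from 3 to 0 (replicate 3) or to 1 (replicate 1, 2 or 4). These counts follow from how the genes were chosen and carry no weight of their own.

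Both ASO doses were compared directly, which addresses whether the fall grew with the dose. *Upf3b* itself was 37.3% of its control mean at 10 mg/kg (21.5 ± 20.0 TPM, SD, n = 5) and 7.04% at 20 mg/kg (7.80 ± 5.82 TPM, SD, n = 5). Of the DPBS mean it was 22.1% and 8.02%. By quantitative PCR the study states a loss of more than 95% of liver *Upf3b* mRNA at 10 mg/kg, and the difference was not resolved. Between the *Upf3b*-GalNAc-ASO groups, *Maob* was lower at 20 mg/kg by a log2 change of -0.95 (95% interval -2.34 to 0.45, adjusted p = 0.891, limma). The change was -0.46 for *Dpyd* (-1.63 to 0.72, adjusted p = 0.918, limma) and -0.81 for *Ppm1l* (-2.09 to 0.46, adjusted p = 0.891, limma). *Sil1* and *Plcb1* were under the minimum of 5 TPM in both groups and were fitted only without that minimum, with changes of -0.22 (-1.71 to 1.27) and -1.17 (-2.55 to 0.22). The fitted change was below 0 for all 5, none past the threshold, and every interval held 0. For *Upf3b* the same comparison gave -1.11 (-2.57 to 0.34, adjusted p = 0.891, limma). Across all 9187 genes, limma called 0 at an adjusted p under 0.05 and 464 at an unadjusted p under 0.05. Both groups also entered the comparisons by which the genes were chosen.

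Against each dose's own controls, the change at 20 mg/kg was further below 0 than that at 10 mg/kg for all 5 genes. The difference of the log2 changes was -0.89 for *Maob*, -0.41 for *Dpyd*, -0.28 for *Sil1*, -1.996 for *Plcb1* and -0.84 for *Ppm1l*. Only the interval of *Plcb1* left out 0 (-3.86 to -0.13), and its adjusted p was 0.589 in limma (unadjusted p = 0.0366, limma). For *Upf3b* the difference was -2.12 (95% interval -3.59 to -0.64, adjusted p = 0.455, limma), from changes of -1.73 at 10 mg/kg (adjusted p = 0.211, limma) and -3.87 at 20 mg/kg, where its controls averaged 57.8 and 110.8 TPM. No gene of 9797 passed an adjusted p of 0.05 here, with 799 at an unadjusted p under 0.05. The controls differed in dose as well, 15 mg/kg for the lower and 20 mg/kg for the higher dose of *Upf3b*-GalNAc-ASO.

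The level of *Upf3b* left and the levels of the 5 genes did not follow 1 order over the treated mice. Replicate 3 at 10 mg/kg had 53.7 TPM of *Upf3b*, inside the range of its controls (27.1 to 78.7 TPM). It nevertheless had 14.7 TPM of *Maob*, 10.8 TPM of *Dpyd*, 4.90 TPM of *Ppm1l* and 0 TPM of *Sil1*, all below every control. In that mouse only *Plcb1*, at 14.8 TPM, was at control level. Replicate 4 at 10 mg/kg had 3.95 TPM of *Upf3b* and the highest *Ppm1l* (39.7 TPM), *Maob* (20.2 TPM) and *Sil1* (5.21 TPM) of its group. The same mouse had the lowest *Dpyd* of its group (6.51 TPM) and 0 TPM of *Plcb1*, so the genes were split in it. Replicate 3 is the shallowest library, so its values rest on 15, 11, 5, 0 and 15.1 reads, but as many as 2.94 TPM of *Sil1* would still be below every control.

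Over the 10 treated mice, Pearson's r of each gene with *Upf3b* on the log2(TPM + 1) scale was 0.21 for *Maob* (permutation p = 0.553), 0.43 for *Dpyd* (permutation p = 0.214), -0.25 for *Sil1* (permutation p = 0.473), 0.48 for *Plcb1* (permutation p = 0.167) and -0.08 for *Ppm1l* (permutation p = 0.822). Spearman's rho was 0.18, 0.43, -0.40, 0.47 and -0.09 in the same order, with permutation p of 0.633, 0.219, 0.255, 0.172 and 0.812. The signs were mixed, and every p adjusted over these 5 correlations was at least 0.534 for r and 0.425 for rho by the same two-sided permutation test. Without the 2 mice farthest from the median of *Upf3b*, r was 0.20, 0.50, -0.03, 0.04 and 0.10. With 5 mice, a single dose is too small for a correlation of its own.

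The variation among DPBS mice was not used to choose the genes. There *Maob* was lower in mice with more *Upf3b*, with r of -0.80 (permutation p = 9.5e-04, adjusted over 5 correlations 0.00475) and rho of -0.81 (permutation p = 0.00393) over 11 mice. *Dpyd* was higher in them (r 0.73, permutation p = 0.00679; rho 0.65, permutation p = 0.0375), as was *Plcb1* (r 0.82, permutation p = 0.00771; rho 0.67, permutation p = 0.0274), both with an adjusted p of 0.0128 for r and 0.0626 for rho. *Sil1* (r 0.49, permutation p = 0.149; rho 0.04, permutation p = 0.925) and *Ppm1l* (r -0.41, permutation p = 0.198; rho -0.31, permutation p = 0.358) gave no relation past the threshold. Replicates 5 and 6, both female and with 2561789 and 1195891 reads, had the least *Upf3b* (33.8 and 43.6 TPM against 82.8 to 136.0 TPM in the other 9), and the part of depth was not tested. Without them r was -0.76 for *Maob* (exact permutation p = 0.0198), 0.48 for *Dpyd* (exact permutation p = 0.195) and 0.53 for *Plcb1* (exact permutation p = 0.143), so that on this scale the last 2 relations rest on those mice. *Upf3b* averaged 80.4 TPM in females, replicates 5 and 6 among them, and 117.5 TPM in males. Its log2 difference, male minus female, was 0.68 (adjusted p = 0.505, limma). Centred within sex, r was -0.69, 0.62 and 0.73, with adjusted permutation p of 0.0466, 0.0717 and 0.0466. Permutations of centred values ran over all mice and not within sex, so these p and the next may be too small. With those 2 mice left out of the centred values, r was -0.67, 0.43 and 0.66 (permutation p = 0.0445, 0.256 and 0.0495). The centring over 11 mice was not repeated without them, so an offset between the sexes came back. These values therefore do not show whether the relation of *Plcb1* rests on those mice. Within the 6 females r was -0.74, 0.79 and 0.77, each with an adjusted exact permutation p of 0.139, and the 5 males are too few.

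**Figure D2:**
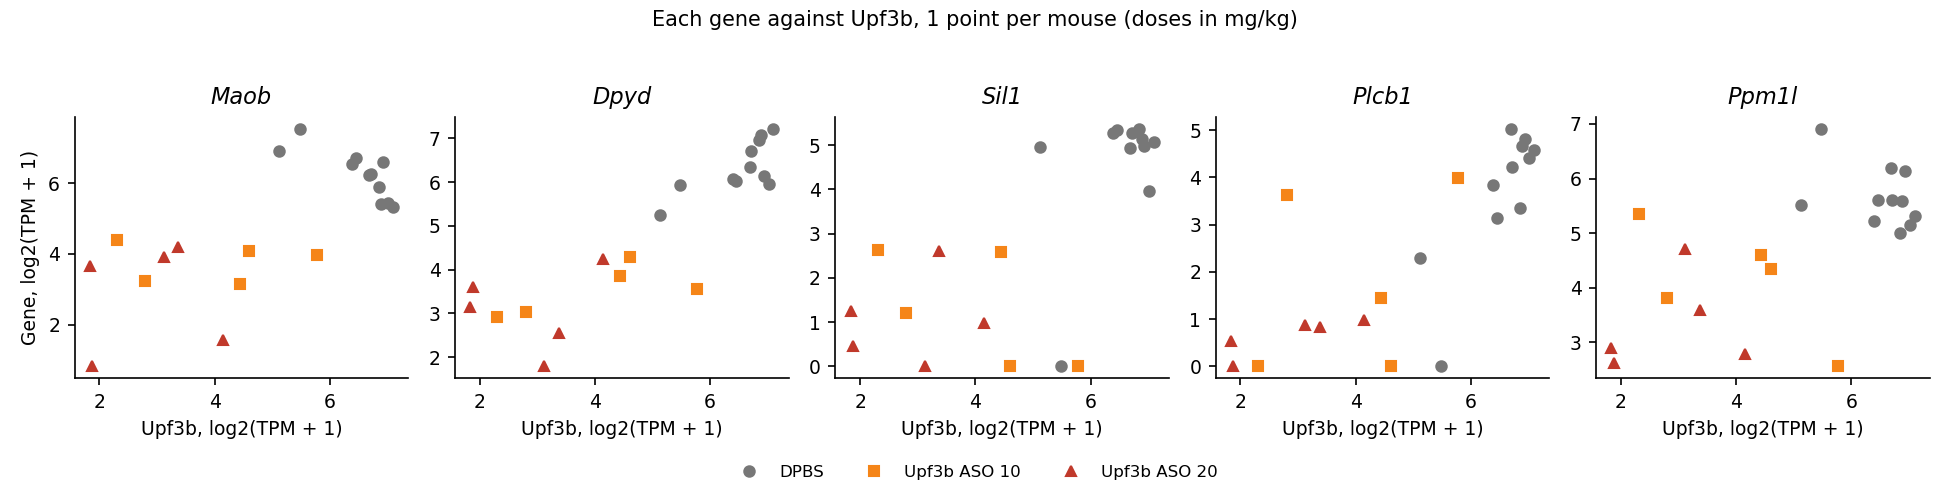
Each gene against Upf3b, both as log2(TPM + 1), with 1 point per mouse for the DPBS group and both Upf3b-GalNAc-ASO groups. Among treated mice r lies between -0.25 and 0.48, and the Maob panel shows the DPBS mice falling from left to right (r of -0.80).

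Control-GalNAc-ASO was compared with DPBS to see what an ASO of another sequence did to these genes. At 15 mg/kg the log2 changes were 0.41 for *Maob*, -0.22 for *Dpyd*, 0.44 for *Sil1*, -0.17 for *Plcb1* and 0.34 for *Ppm1l*, with adjusted p between 0.776 and 0.966 in limma. At 20 mg/kg they were 0.37, -0.26, 0.51, 0.64 and 0.38, with adjusted p between 0.608 and 0.784 in limma. None was called (background 0% at both doses, with 644 and 905 genes at an unadjusted p under 0.05). The most negative bound of the intervals for *Maob*, *Dpyd* and *Ppm1l* was -0.87, for *Dpyd* at 15 mg/kg, while those of *Sil1* and *Plcb1* reached -1.66. *Upf3b* was lower in the 15 mg/kg controls than in DPBS mice (57.8 ± 22.1 TPM, n = 4, against 97.3 ± 33.2 TPM, n = 11; log2 change -0.75, adjusted p = 0.691, limma). The change of *Plcb1* at 15 mg/kg turned to 0.64 without replicate 2 of those controls, at 2.15 TPM. These control mice also entered the comparisons that chose the genes.

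Males and females were compared in the DPBS group. *Maob* ran from 58.3 to 185.6 TPM (median 99.7 TPM) in 6 females and from 39.2 to 76.0 TPM (median 42.6 TPM) in 5 males, and the sexes overlapped. Its log2 difference, male minus female, was -0.96 (95% interval -1.61 to -0.31, adjusted p = 0.215, limma). *Plcb1* went the other way, from 0 to 27.2 TPM (median 8.58 TPM) in females and from 17.7 to 31.8 TPM (median 23.0 TPM) in males, a difference of 1.68 (0.33 to 3.03, adjusted p = 0.371, limma) that turned to -0.16 with all 31 mice in 1 fit. *Dpyd*, with a mean of 70.3 ± 28.8 TPM (SD, n = 6) in females and 105.7 ± 36.3 TPM (SD, n = 5) in males, differed by 0.60 (-0.07 to 1.26, adjusted p = 0.555, limma). The differences of *Sil1* (0.55) and *Ppm1l* (-0.17) had adjusted p of 0.841 and 0.890 in limma. None of the 5 was called, where 1.41% of 8998 genes were. Without DPBS replicate 6 the differences of *Sil1* and *Ppm1l* changed sign, to -0.31 and 0.07.

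Genes were also grouped by annotated span, to set the 5 beside other long genes. At 10 mg/kg the median log2 change was -0.11 for 2239 genes under 10 kb, -0.03 for those of 10 to 30 kb, 0.04 for 30 to 100 kb, -8.02e-05 for 100 to 200 kb and 0.03 for 353 genes of at least 200 kb. The median at 20 mg/kg stepped down with span, from 0.06 under 10 kb (2294 genes) through -0.05, -0.22 and -0.40 to -0.49 at 200 kb or more (365 genes). The share of genes with a negative change rose from 46.1% in the shortest class to 73.2% at 100 to 200 kb and 70.7% at 200 kb or more. At 10 mg/kg these shares were 56.1%, 50.1% and 48.4%. The 5 genes were far below the median of their span class at both doses, as their choice implies. The difference in these medians between the doses was not tested. Median-of-ratios scaling moved the median of all genes at 20 mg/kg from -0.12 to -0.013, that of the shortest class to 0.17 and that of the longest to -0.39, and a pseudocount of 5 gave -0.38 for the longest.

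By the study's thresholds, 52 of the 365 longest genes were lower at 20 mg/kg (14.2%) and 13 higher, against 57 lower (2.48%) and 80 higher of the 2294 shortest. At 10 mg/kg, 15 of 353 (4.25%) were lower and 13 higher, against 58 (2.59%) and 59 of the shortest. These counts include the genes of the set. Genes were also split at the median of mean TPM, which need not order them by abundance. In the lower part, the medians of the shortest and longest classes at 20 mg/kg were 0.06 and -0.57, and in the upper part 0.06 and -0.44. With each mouse left out in turn, the median of the longest class stayed between -0.57 and -0.43 at 20 mg/kg and between -0.11 and 0.19 at 10 mg/kg. In Control-GalNAc-ASO mice at 20 mg/kg against DPBS the same classes had medians from 0.10 to 0.23, and at 15 mg/kg from -0.08 to 0.10. The 20 mg/kg controls are shared by both of the comparisons at that dose, so the medians are not independent of each other.

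**Figure D3:**
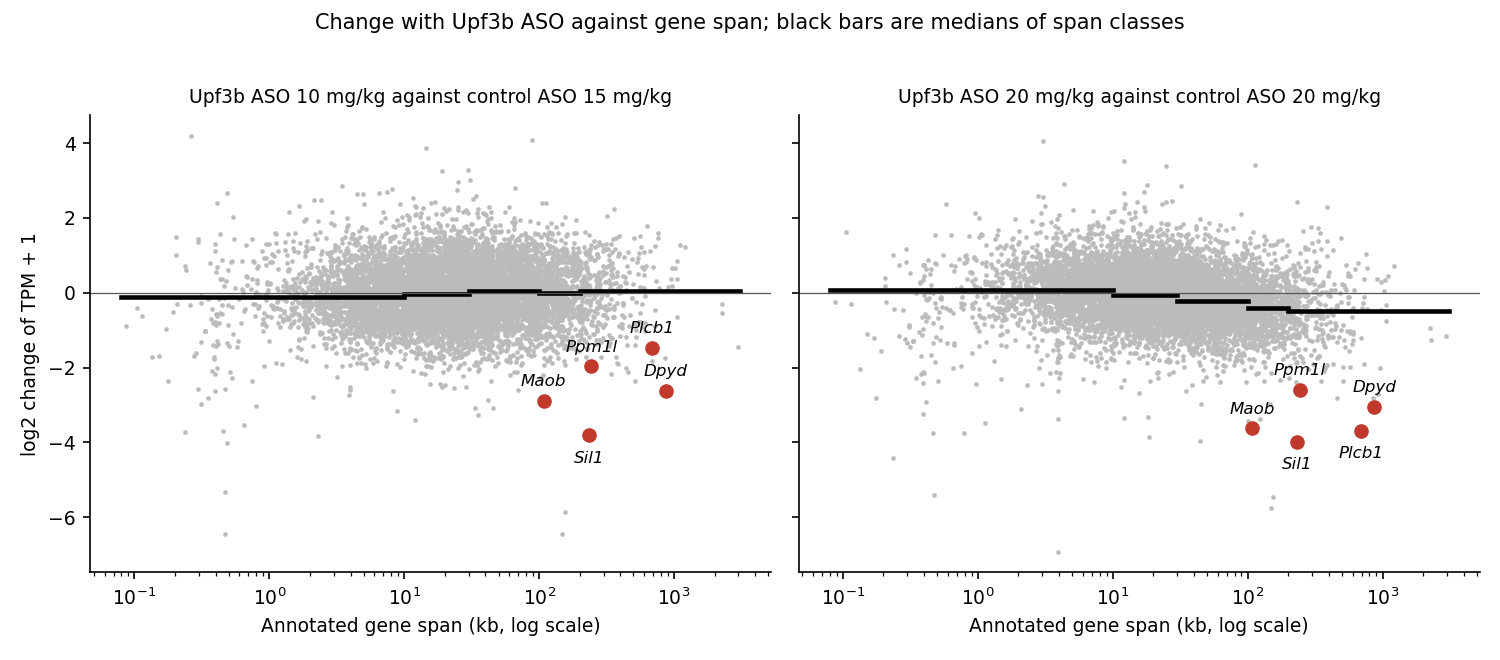
Log2 change of TPM + 1 (vertical axis) against annotated gene span in kb (log scale) for the 8564 genes tested at both doses, with the 5 genes in red and the median of each span class, over all genes tested at that dose, as black bars. At 20 mg/kg the bars step down from 0.06 to -0.49, while at 10 mg/kg they stay between -0.11 and 0.04.

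**Figure D4:**
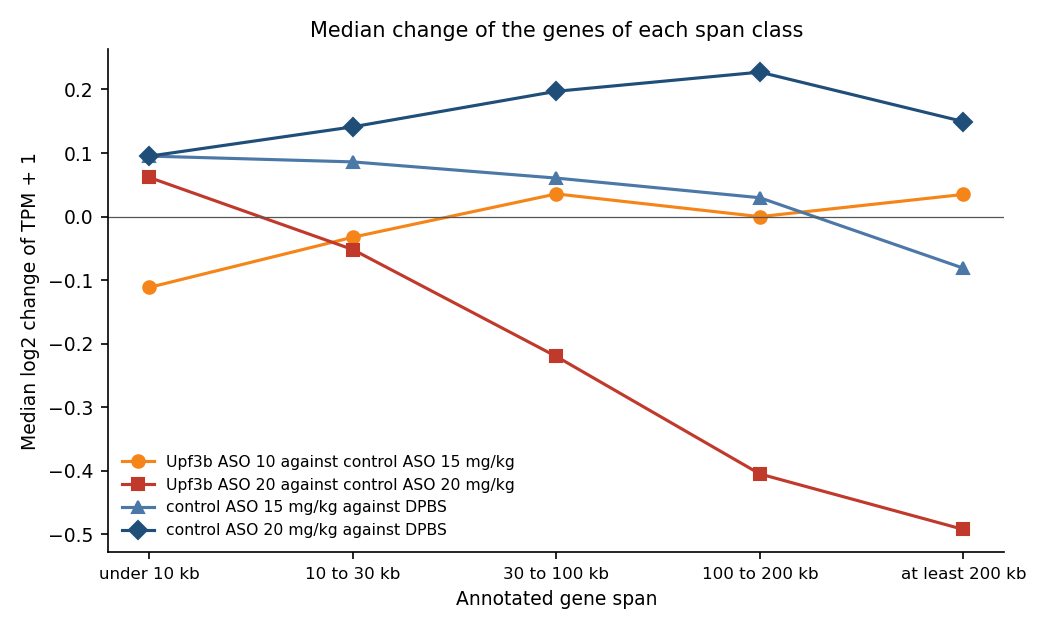
Median log2 change of TPM + 1 (vertical axis) of the genes in 5 classes of annotated span, for 4 comparisons. The Upf3b-GalNAc-ASO comparison at 20 mg/kg falls from 0.06 to -0.49, and both Control-GalNAc-ASO comparisons with DPBS lie between -0.08 and 0.23.

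Few other genes combined such a span with such a fall. Both limits were taken from the 5 genes, which were chosen for their fall, so the small number of others carries no weight of its own. Of the 903 genes at least as long as *Maob*, 11 fell at both doses by at least as much as the least lowered of the 5 at that dose, and 6 of these are not in the set. Of the 8564 genes of any span, 26 did. *Lipc*, the hepatic lipase gene, changed by -5.86 (SE 0.51) at 10 mg/kg and -5.47 (SE 0.52) at 20 mg/kg over 154 kb. *Immp2l*, a mitochondrial inner membrane peptidase gene of 931 kb, changed by -2.71 (SE 0.65) and -2.72 (SE 0.67), and *Gphn*, the gephyrin gene of 458 kb, by -2.12 (SE 0.69) and -2.81 (SE 0.53). *Erc2*, of 856 kb, changed by -1.75 (SE 0.68) and -2.82 (SE 0.67). *Ugt1a9* changed by -6.44 (SE 2.11) and -5.77 (SE 1.52). It shares its last exons with other genes of the *Ugt1a* cluster, so its value is uncertain. *Lipc*, *Erc2* and *Ugt1a9* are named here after their values were seen. *Sil1*, *Dpyd*, *Immp2l*, *Plcb1* and *Gphn* had, in this order, the largest mean falls of all genes of at least 200 kb.

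Pairs of the 5 genes were compared over mice. Over all 31 mice Pearson's r between pairs ran from 0.46 (*Plcb1* and *Ppm1l*) to 0.89 (*Maob* and *Ppm1l*). Centred within group and sex it ran from -0.33 (*Sil1* and *Ppm1l*) to 0.66 (*Sil1* and *Plcb1*), with 6 of 10 pairs below 0 and *Maob* with *Ppm1l* (0.38) and *Dpyd* with *Plcb1* (0.33) next to the highest. Over all mice, the genes most like *Maob* were *Ppm1l* (r 0.89), *Rdh16* (0.89) and *Slc1a2* (0.88), and those most like *Dpyd* were *Lipc* (0.90), *Rdh16* (0.89) and *Upf3b* itself (0.87). *Bre* (0.85), *Ptprk* (0.82) and *Rdh16* (0.81) were closest to *Sil1*. For *Plcb1* they were *Upf3b* (0.82), *Myo6* (0.75) and *Bre* (0.74), and for *Ppm1l*, *Maob*, *Oat* (0.86) and *Ces1d* (0.83). These values span the treatment groups, so they describe the shared fall. After centring, the closest were *Gpcpd1*, *Fam208a* and *Ahsa2* for *Maob* (0.77 to 0.81), *Wdr12*, *U2surp* and *Ddx39* for *Dpyd* (0.72 to 0.74) and *Mgat2* and *Mrps24* for *Sil1* (0.82 and 0.81). For *Plcb1* they were *Prdm2*, *Ndufaf2* and *Fam50a* (0.80 to 0.86) and for *Ppm1l* *Gm16056*, *Hagh* and *Furin* (0.78 to 0.83), with no gene in common. Depth and the mice that stand apart are shared by all points, and 9840 genes were compared.

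Partners of the 5 genes in their pathways were followed in 5 lists. Over all genes tested, 0.295% were called in either direction at 10 mg/kg and 2.52% at 20 mg/kg by an adjusted p under 0.05, and the difference between a partner and a gene of the set was not tested. Amine breakdown was followed in 8 genes beside *Maob*, with a median log2 change of 0.32 at 10 mg/kg and -0.06 at 20 mg/kg. *Maoa*, the neighbouring isoenzyme on the X chromosome, averaged 659 ± 328 TPM (SD) in the 5 treated and 373 ± 87.3 TPM in the 4 control mice at 10 mg/kg, a change of 0.80 (adjusted p = 0.221, limma), and changed by 0.65 at 20 mg/kg (adjusted p = 0.224, limma). By an adjusted p under 0.05 in limma, 0 of 8 changed at 10 mg/kg, and at 20 mg/kg the aldehyde dehydrogenase gene *Aldh9a1* fell (-1.32, adjusted p = 0.0148) and the aldehyde reductase gene *Akr1a1* rose (1.20, adjusted p = 0.0379). *Inmt*, an indole N-methyltransferase gene, fell at 10 mg/kg by the study's thresholds only (-1.003, adjusted p = 0.168, limma), and *Hnmt*, the histamine N-methyltransferase gene, changed by -1.03 (adjusted p = 0.409, limma).

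Of 9 genes of pyrimidine breakdown and salvage beside *Dpyd*, 7 were tested, with medians of -0.54 and -0.40 at 10 and 20 mg/kg. *Dpys*, whose enzyme takes the product of *Dpyd* to the next step, fell at 20 mg/kg from 109 ± 31.7 TPM (SD, n = 6) to 35.7 ± 22.4 TPM (SD, n = 5), a change of -1.80 (adjusted p = 0.0286, limma). At 10 mg/kg its change was -0.76 (adjusted p = 0.286, limma). *Upb1*, which completes the pathway, changed by 0.01 and 0.14. The cytidine deaminase gene *Cda* rose at 10 mg/kg by the study's thresholds only (1.71, adjusted p = 0.193, limma), and the uridine phosphorylase gene *Upp2* changed by -1.47 (adjusted p = 0.204, limma). In all 1 of 7 was called by adjusted p at 20 mg/kg (background 2.52%) and 0 at 10 mg/kg (background 0.295%).

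The BiP cycle was represented by 12 genes beside *Sil1*, with medians of 0.03 at 10 mg/kg and -0.41 at 20 mg/kg. *Hspa5*, which encodes BiP, changed by -0.09 and -0.40 (adjusted p = 0.913 and 0.457, limma), and *Hyou1*, whose product is the other exchange factor for BiP, by -0.60 and -0.37. *Dnajc3*, a co-chaperone gene, was called at 20 mg/kg (-1.13, adjusted p = 0.0446, limma), and *Dnajb11* passed only the study's thresholds there (-1.10, adjusted p = 0.0680, limma). *Dnajb11* (-1.03) and *Dnajb9* (-0.75) had the largest changes at 10 mg/kg, where 0 of 12 were called (background 0.295%, and 2.52% at 20 mg/kg).

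Of 15 genes of Gq signalling beside *Plcb1*, 10 were tested at 10 mg/kg and 11 at 20 mg/kg, with medians of -0.04 and -0.80. The inositol trisphosphate receptor gene *Itpr1* fell at 20 mg/kg from 24.4 ± 11.3 TPM (SD, n = 6) to 6.41 ± 1.92 TPM (SD, n = 5), a change of -1.69 (adjusted p = 0.0355, limma). It spans 338 kb and changed by -1.21 (adjusted p = 0.261, limma) at 10 mg/kg. *Itpr2* (-1.13) and the protein kinase C gene *Prkca* (-1.90) passed only the study's thresholds at 20 mg/kg (adjusted p = 0.0659 and 0.0840, limma), with spans of 394 and 411 kb. The paralog *Plcb4*, of 356 kb, changed by 1.45 at 10 mg/kg (adjusted p = 0.305, limma) and 0.01 at 20 mg/kg. Among 15 PP2C phosphatase genes beside *Ppm1l*, 8 and 11 were tested, with medians of -0.32 and -0.13. None of them passed an adjusted p of 0.05 in limma (background 0.295% at 10 mg/kg and 2.52% at 20 mg/kg). *Ppm1h*, of 267 kb, rose at 20 mg/kg by the study's thresholds (1.23, adjusted p = 0.0861, limma) and changed by 1.04 at 10 mg/kg, and *Pptc7* changed by -0.95 at both doses.

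**Figure D5:**
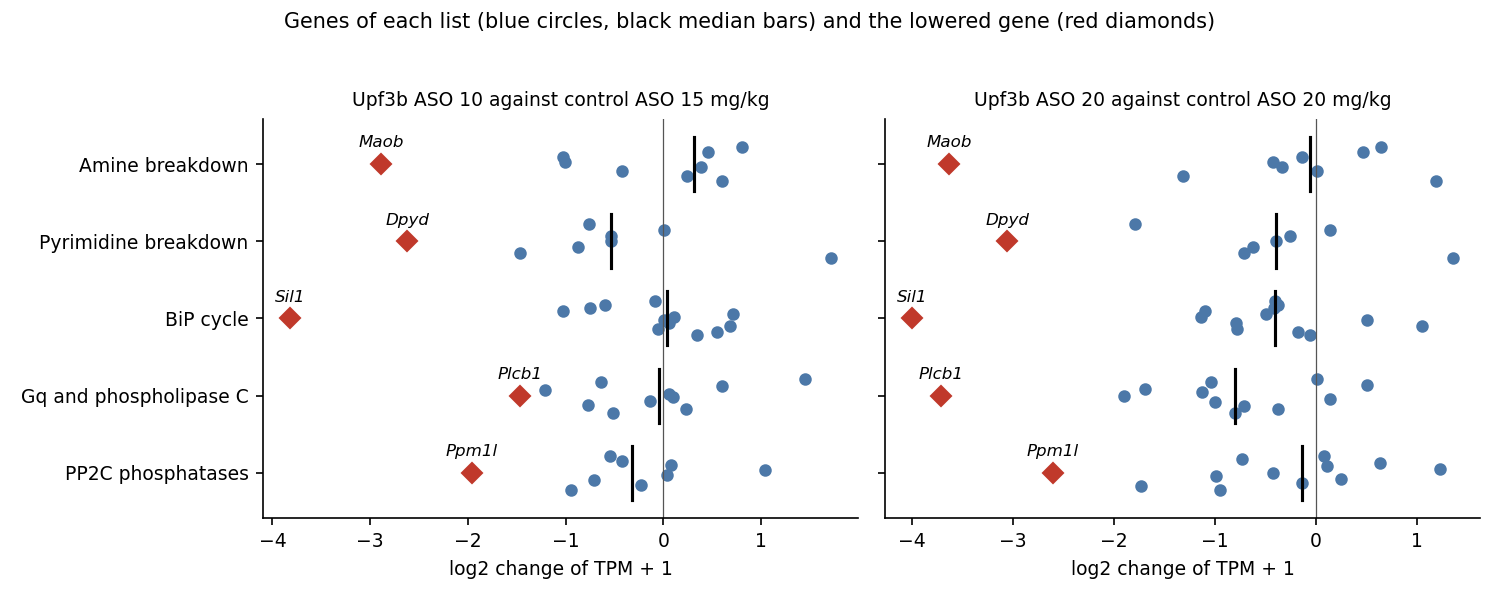
Log2 change of TPM + 1 (horizontal axis) of the tested genes of each list (blue circles, with black median bars) and of the gene of the set that belongs with it (red diamonds). At 20 mg/kg every diamond lies below every circle of its list, the nearest gap being that of Ppm1l at -2.60 and a circle at -1.74. The genes of the set were chosen for their fall, so this order carries no weight of its own.

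*Upf3a*, the paralog of *Upf3b*, was 19.0 ± 24.2 TPM (SD, n = 5) at 10 mg/kg and 8.03 ± 6.21 TPM (SD, n = 5) at 20 mg/kg, with changes against control of 0.92 and -0.48. Replicate 3 at 10 mg/kg had 61.7 TPM, and the other 4 mice had 4.22 to 13.1 TPM. Among cell type markers, all 6 tested hepatocyte genes had a change below 0 at 10 mg/kg (median -0.46), of which 1 was called (*Tat*, -1.99, adjusted p = 0.0237, limma; background 0.295%). At 20 mg/kg 5 of 6 were below 0 (median -0.13) and 0 were called (background 2.52%). None of the tested Kupffer cell, endothelial, stellate cell and cholangiocyte markers was called at either dose, with only 2 of 5 cholangiocyte markers tested at each. Of 5 leukocyte markers, 1 was tested at 10 mg/kg and was not called. At 20 mg/kg 0 were tested, so nothing can be said of them there. All 6 endothelial markers had a change below 0 at 20 mg/kg (median -0.59) and 4 of 6 at 10 mg/kg (median -0.36). Over all genes tested, 56.8% had a change below 0 at 20 mg/kg and 51.6% at 10 mg/kg. The summed level of 5 cholangiocyte markers was 21.8 to 27.4 TPM at 10 mg/kg of *Upf3b*-GalNAc-ASO against 6.95 to 20.6 TPM in its controls. At 20 mg/kg it was 16.6 to 199 TPM against 13.3 to 34.4 TPM, but the medians were close, at 21.03 and 19.23 TPM. *Sox9*, 1 of these cholangiocyte markers, varied widely in the treated mice at 20 mg/kg (46.62 ± 75.03 TPM, SD, n = 5). The part of these cells in the fall of the 5 genes was not tested.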

How the data were processed

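Liver RNA of 31 separate mice was sequenced. The authors deposited 1 table a mouse, of gene symbols and their TPM from Salmon 0.7.2 (quasi-mapping to Ensembl's GRCm38 cDNA), after base calling with bcl2fastq 2.17.1.14. The labels name a 3′ end library kit and the study's methods a whole-transcript kit, and the labels call dosing weekly where the protocol has an interval of 5 days. Of 31198 symbols, 26 that had turned into dates were left out. In each mouse 70.2% to 81.6% of values were whole multiples (tolerance 0.02) of the worth of 1 read, whatever the gene's length, which gave reads per mouse. As not nearly all were whole, no count test was run.

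Values were tested as log2(TPM + 1) with limma 3.58.1 in R 4.3.3 (trended, robust variance), with sex as a covariate, the compared groups only, and only genes whose median reached 5 TPM in 1 group or more. A pseudocount of 1 understates the change of low genes. Benjamini-Hochberg adjustment ran over all genes tested. Correlations used two-sided permutation tests with 100000 resamples, or all orders under 10 mice (scipy 1.17.1). Model fits were tested on simulated data. Spans and sequences came from the annotation and transcripts of GRCm38, with 97.9% of symbols matched to 1 gene. Alternatives were other pseudocounts, filters, scalings, variance models, covariates, a replicate block and each mouse left out.

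The 5 genes, the lists and the tests were chosen with earlier results of these data known. Beside the 5, *Upf3b* and *Upf3a*, genes were named if they passed a test in a list of pathway partners, had 1 of the 2 largest changes of their list at 10 mg/kg, were among the 3 most correlated with a gene of the set, or were among the 5 genes of at least 200 kb that fell most. *Maoa*, *Upb1*, *Hspa5*, *Hyou1* and *Tat* were named outside that rule, after their values were seen. Mice given an ASO against *Upf1* were not analysed here, and a few genes that met these rules are not reported here.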

Additional observations from a re-analysis of the deposited data

Results flagged for a closer look

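*Sil1* in replicate 1 of *Upf3b*-GalNAc-ASO at 20 mg/kg, at 5.11 TPM, lay apart from the other 4 mice of its group, which had 0 to 1.38 TPM. The gap to the nearest mouse was 0.73 of the range of the group, where Dixon's critical value for 5 samples is 0.71. It was the 1 such value among 24 combinations of gene and group examined, and chance alone flags about 1 in 20. The value rests on 24 reads and is below every Control-GalNAc-ASO mouse.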

How the results depend on the processing

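The change of each of the 5 genes against Control-GalNAc-ASO stayed negative at both doses under every alternative run, and the median of the 5 at 20 mg/kg went from -3.63 to -2.505 with a pseudocount of 5. Counts over all genes moved more, and the cause was not tested. At 10 mg/kg the 27 genes at an adjusted p under 0.05 became 17 with a pseudocount of 0.5, 56 with 5, 13 without the filter, 16 without trended and robust variance and 10 without the sex covariate, where the 441 genes by the study's thresholds became 266. At 20 mg/kg 236 became 105 without the filter and 60 without trended and robust variance. Without the filter 3 genes were called for the control at 15 mg/kg against DPBS, with a pseudocount of 5 there was 1 at 20 mg/kg, and without trended and robust variance 2 for the difference between doses, each against 0. With all 31 mice in 1 fit, the sexes differed in 246 genes in place of 127, the median of the 5 was -0.092 in place of 0.55, and *Plcb1* turned to -0.16.

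Leaving out each mouse in turn gave 2 to 431 genes at an adjusted p under 0.05 at 10 mg/kg, with 2 without replicate 3 of the controls and 431 without replicate 1 of the treated mice, and 225 to 951 by the study's thresholds. It gave 70 (without control replicate 3) to 270 at 20 mg/kg, 0 to 13 for the difference between doses, and 0 to 1 and 0 to 7 for the controls at 15 and 20 mg/kg against DPBS. The median correlation with *Upf3b* over the treated mice ran from -0.15 to 0.37. Sign changes came for *Sil1* in the difference between doses (-0.72 to 0.066), *Plcb1* in controls at 15 mg/kg against DPBS (-0.76 to 0.64), *Sil1* (-0.31 to 0.78) and *Ppm1l* (-0.32 to 0.069) between the sexes, *Maob* (-0.15 to 0.37) and *Ppm1l* (-0.29 to 0.26) in the correlation over treated mice, and *Sil1* among DPBS mice (r -0.14 without replicate 6).

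Replicate numbers did not pair the mice: same-numbered mice correlated between -0.39 and 0.17. With the replicate block, 104 genes were called at 10 mg/kg, 43 at 20 mg/kg and 2 for the control at 15 mg/kg against DPBS, and *Dpyd* in the control at 20 mg/kg against DPBS turned to 0.048. The splits of span classes by mean TPM and by left-out mouse, and the DPBS correlations within sex and without replicate 6, were chosen after seeing the data. Depth limits *Sil1* and *Plcb1* most, since a few reads remain in treated mice.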
